A study of Mus musculus with 2 samples.

Results

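Leukocyte barcodes made up 119 of the 1857 cell barcodes recovered from iChip-enriched mouse blood: 100 of 1008 in replicate 1 and 19 of 849 in replicate 2. A barcode was taken as a leukocyte when under 50% of its UMIs (unique molecular identifiers, 1 per captured transcript) came from the 4 haemoglobin genes Hba-a1, Hba-a2, Hbb-bs and Hbb-bt, and when it also carried leukocyte transcripts. The leukocyte evidence was either a UMI of Ptprc, which encodes the pan-leukocyte phosphatase CD45, or UMIs of at least 2 of 13 lineage markers. Those markers were Cd79a, Cd79b, Ms4a1, Ebf1 and Bank1 for B cells, Cd3e and Trbc2 for T cells, and Csf1r, Csf3r, Lyz2, Ccr2, S100a8 and S100a9 for myeloid cells. The members were thus chosen from the measured counts, and values that set them against other barcodes, or lineages against each other, are given as descriptions without a test.

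Both libraries were made on the 10x Chromium platform. The mice were wild type and had undergone burn/tenotomy, in which a skin burn is combined with a severed tendon so that bone later forms in soft tissue. Their whole blood had passed through the iChip, a microfluidic sorter built to remove red cells and recover rare nucleated cells, so leukocyte shares here are shares of sorted barcodes and not blood counts. The labels name the recovered material as blood cells together with circulating mesenchymal progenitor cells, give 1 group, and do not say whether the 2 replicates came from separate mice. Uninjured animals were not analysed here, so no value below is an effect of the injury. The libraries shared 0 barcode sequences.

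Leukocytes of mouse blood are mostly lymphocytes, with B cells the most frequent of them, followed by neutrophils and monocytes. Mature B cells depend on the transcription factors Ebf1 and Pax5 and signal through a surface immunoglobulin coupled to Cd79a and Cd79b, by way of the kinases Lyn and Syk and the adaptor Blnk. Neutrophils carry large amounts of the calcium-binding proteins S100a8 and S100a9, and blood monocytes depend on the receptor encoded by Csf1r, with Ccr2 and Cx3cr1 marking their inflammatory and patrolling forms.

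The share of leukocyte barcodes was 9.92% in replicate 1 (exact Clopper-Pearson 95% interval 8.14% to 11.9%) and 2.24% in replicate 2 (1.35% to 3.47%), with a mean of 6.08% ± 5.43 (SD, n = 2 libraries). The 2 intervals did not overlap. These and all later intervals cover counting error only. By rule, 94 members had a UMI of Ptprc (chr1:138062861-138175708, mm10, minus strand), 84 had at least 2 of the 13 markers and 59 had both. Ptprc alone brought in 35 members, of which 17 had no UMI of any other marker, and 25 members entered without Ptprc. Leukocyte barcodes held 3.32% of all UMIs but 15.3% of the UMIs left after haemoglobin and mitochondrially encoded genes were taken out (24.95% in replicate 1 and 2.88% in replicate 2). Gene levels below are UMIs per 1e6 of these nuclear-encoded, non-haemoglobin UMIs, of which the members held 170927 in replicate 1 and 15237 in replicate 2.

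The haemoglobin limit was not close to the members. The 3 members richest in haemoglobin held 14.3%, 6.50% and 3.54% of their UMIs in it, and 117 of 119 were at or under 4%. Of the 847 barcodes with at least 50% haemoglobin, 3 met the marker rule (0.354%), all in replicate 1 and each with 1 Ptprc UMI. They stood at 54.6%, 71.7% and 92.8% haemoglobin, and the first of them also had UMIs of 4 of the 13 markers. The marker limit ran closer: 102 barcodes with little haemoglobin had exactly 1 marker and no Ptprc, 51 in each library, and in 54 of them that marker was Lyz2, the lysozyme gene of phagocytes.

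The label was compared with 14 pan-leukocyte genes, of which Ptprc was also used by the rule, so that the sum is partly fixed by the choice of members. Their summed level was 13124 ± 2224 (SD, n = 2 libraries) in leukocyte barcodes, against 470.2 ± 375.2 in the other barcodes under 50% haemoglobin and a mean of 41.0 in the barcodes with at least 50%. Arhgap15, a Rac regulator of haematopoietic cells, had 787 of its 835 UMIs in the members (94.3%), in 81 of the 119. Dock2, the Rac activator needed for lymphocyte migration, had 527 of 549 UMIs there (96.0%), in 82 members. Neither of these 2 genes was part of the rule. Of the 14 genes, 12 were at least 4-fold above all other barcodes in both libraries, beside 33.3% of all genes. Laptm5 and Cd52 were not. Laptm5 had 41 of its 82 UMIs in the members, and Cd52 had 76 of 84 there but 0 in replicate 2. Arhgap15 was at 4277 in replicate 1 and 3675 in replicate 2, and Dock2 at 2878 and 2297, so summed levels were alike. The share of members was not alike. Arhgap15 was in 75 of 100 members of replicate 1 and 6 of 19 of replicate 2, and Dock2 in 76 and 6.

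Leukocyte barcodes differed among themselves in depth and in mitochondrial RNA. In replicate 1 their median depth was 1466 UMIs and 650 genes, with 16.6% mitochondrial UMIs. In replicate 2 it was 1307 UMIs but only 129 genes, with 89.0% mitochondrial UMIs. A mitochondrial share over 20%, a common limit for intact cells, was found in 40 of 100 members of replicate 1 (40%, interval 30.3% to 50.3%) and in 14 of 19 of replicate 2 (73.7%, 48.8% to 90.9%). The other barcodes under 50% haemoglobin passed that limit in 91.9% of cases in replicate 1 and 68.7% in replicate 2. In the plot of depth against mitochondrial share no member lies between 48.5% and 74.1%.

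**Figure D1:**
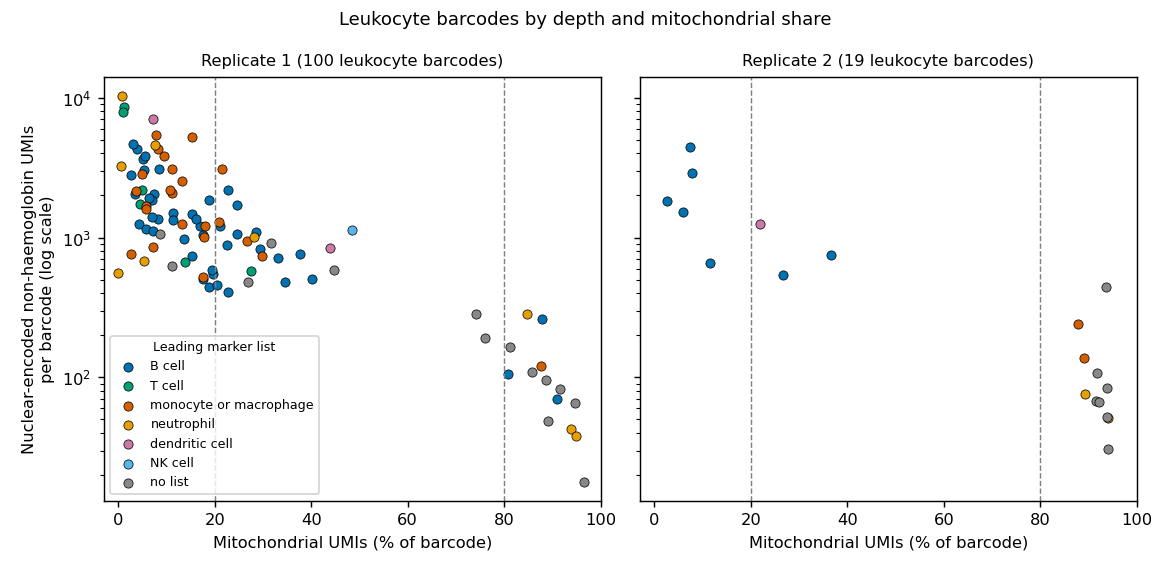
Each point is 1 leukocyte barcode, with its mitochondrial UMIs (% of the barcode) on the x axis and its nuclear-encoded non-haemoglobin UMIs (log scale) on the y axis, in replicate 1 on the left and replicate 2 on the right; colours give the leading marker list and dashed lines stand at 20% and 80%. The 25 barcodes over 80% have a median of 83 nuclear UMIs, and 14 of them are led by no list.

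Leukocytes were unevenly spread over the mitochondrial range. At or under 20% mitochondrial UMIs, leukocytes were 60 of 95 such barcodes in replicate 1 (63.2%, interval 52.6% to 72.8%) and 5 of 148 in replicate 2 (3.38%, 1.11% to 7.71%). From 20% to 80% they were 26 of 73 (35.6%) and 3 of 43 (6.98%). Over 80% they were 14 of 366 (3.83%, 2.11% to 6.33%) and 11 of 285 (3.86%, 1.94% to 6.80%). The libraries therefore lay far apart in the low and middle ranges and had nearly the same share in the high range.

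**Figure D2:**
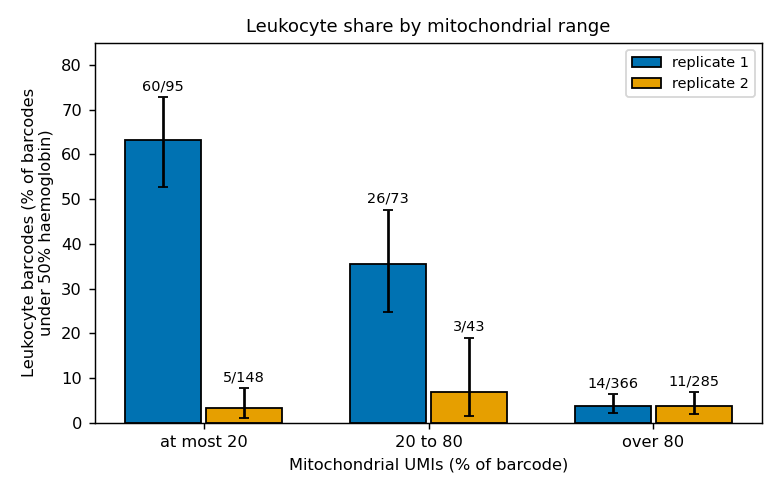
Bars give leukocyte barcodes as a percentage of all barcodes under 50% haemoglobin in 3 ranges of mitochondrial UMIs, for replicate 1 (blue) and replicate 2 (orange); error bars are exact 95% binomial intervals and the fractions are counts. The bars of the libraries stand apart at or under 20% (63.2% against 3.38%) and together over 80% (3.83% against 3.86%).

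The 25 members over 80% mitochondrial UMIs were also different in content. Arhgap15 was in 0 of the 25, which allows a share of up to 12.0%, and Dock2 in 2, against 59 and 56 of the 65 members at or under 20% and 22 and 24 of the 29 between the limits. Their median depth was 83 nuclear UMIs, against 1727 and 822. To set the ranges at 1 depth, each barcode was thinned to 100 nuclear UMIs, which left out 15 of the 25 and none of the others. The expected share with an Arhgap15 UMI was then 31.5% at or under 20%, 28.0% between the limits and 0% over 80% (10 barcodes). Other barcodes under 50% haemoglobin were at 2.38% and those with at least 50% at 0.0775%, after 574 and 4 shallower barcodes were left out. Ptprc and Lyz2 were used by the rule. A barcode with few nuclear UMIs had to hold such markers to be a member, so their shares were partly fixed in advance. At this depth Lyz2 was expected in 31.5% of the members over 80% and in 2.94% of those at or under 20%. Nothing is read from that difference. Malat1, an RNA that stays in the nucleus, was in 8 of the 25, 26 of the 29 and 64 of the 65. At 100 nuclear UMIs it was expected in 47.7%, 71.0% and 86.5%. Dock2 was expected in 9.59%, 24.8% and 23.3%, against 1.47% of the other barcodes under 50% haemoglobin. The members over 80% thus met the leukocyte rule with no UMI of Arhgap15 and with Dock2 in 2 barcodes, both leukocyte genes outside it.

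Each leukocyte barcode was then given the lineage whose marker list had the most UMIs in it, with at least 2 UMIs and no tie. B cell lists led 45 of the 100 members of replicate 1 (45%, interval 35.0% to 55.3%) and 7 of the 19 of replicate 2 (36.8%, 16.3% to 61.6%). Monocyte or macrophage lists led 23 and 2, neutrophil lists 9 and 2, and no list led 14 and 7. T cell lists led 6 members of replicate 1 and none of replicate 2, where 0 of 19 allows a share of up to 15.8%. Dendritic cell lists led 2 and 1, and the NK cell list led 1 barcode of replicate 1, with 4 UMIs. No member was led by the basophil or mast cell, eosinophil or plasma cell list (0 of 119, which allows up to 2.52%). Among members at or under 20% mitochondrial UMIs, B cell lists led 29 of 60 in replicate 1 and 5 of 5 in replicate 2.

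The lists were not equally clear-cut. The leading B cell list had a median of 28.5 UMIs per B cell-led barcode, the monocyte or macrophage list 8 and the neutrophil list 8. At least 2 UMIs of another lineage's list were found in 21 of 52 B cell-led barcodes, 11 of 25 monocyte- or macrophage-led barcodes and 5 of 6 T cell-led barcodes. The next list reached at least 50% of the leading one in 2, 4 and 1 barcodes of these kinds. No doublet caller was run, and barcodes holding 2 cells were not removed.

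**Figure D3:**
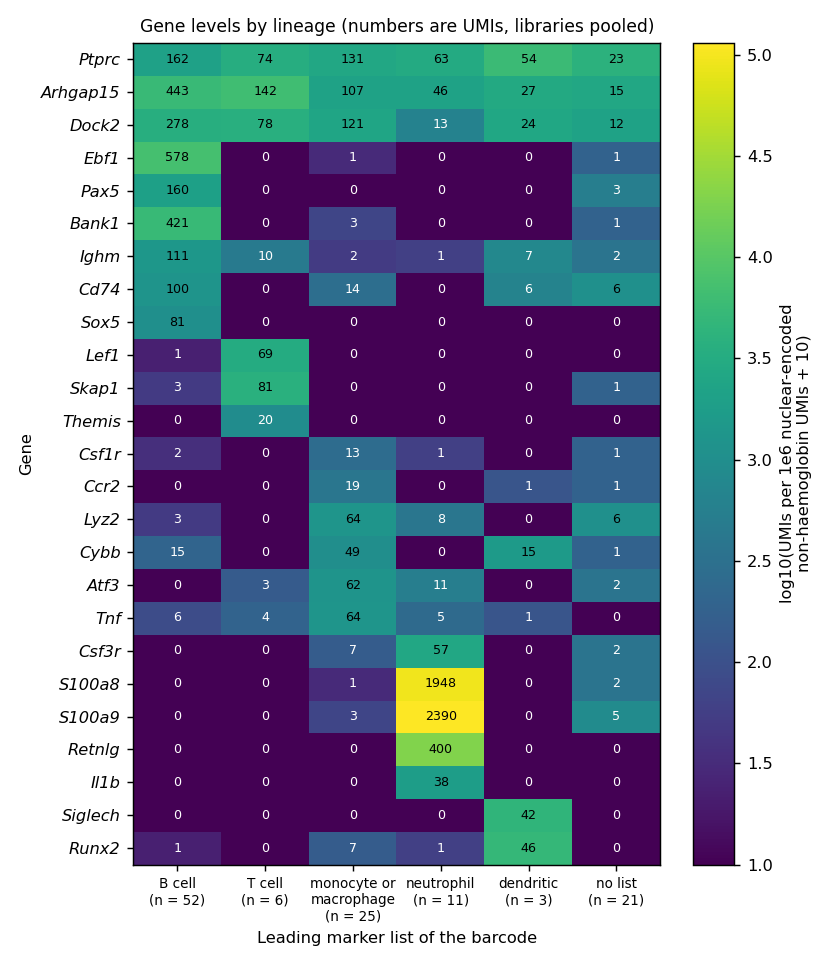
Rows are genes and columns are leukocyte barcodes by leading marker list, libraries pooled; colour is log10 of the level plus 10 and the number in each cell is the UMI count. Ebf1, Bank1 and Pax5 fill the B cell column, S100a8 and S100a9 the neutrophil column, and Ptprc, Arhgap15 and Dock2 run through every column.

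B cell-led barcodes carried genes of mature B cells and of unswitched immunoglobulin. Over all members Ebf1, the B lineage specification factor (chr11:44617317-45008091, plus strand), was at 2756 in replicate 1 and 7154 in replicate 2. In B cell-led barcodes alone it was at 7101 and 8637. It had 580 UMIs in the members and 7 in other barcodes under 50% haemoglobin. Of the 580, 578 were in B cell-led barcodes (47 of 52) and 1 was in a monocyte- or macrophage-led barcode. Bank1, a scaffold of B cell receptor signalling, was at 2188 and 3347 over all members, and at 5602 and 4041 in B cell-led barcodes. The library with the higher Bank1 level thus differed between these 2 measures. Of its 425 UMIs in the members, 421 were in 46 B cell-led barcodes. Ebf1 and Bank1 occurred together in 45 of the 52, and Pax5 and Ebf1 in 35. Since these genes sit in the list that named the group, their counts describe it and do not test it.

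Surface immunoglobulin was seen at low counts. Ighm, the IgM heavy chain, was in 34 of 52 B cell-led barcodes (111 UMIs), Ighd, the IgD heavy chain, in 23 (36 UMIs), and both in 20. Monocyte- or macrophage-led barcodes, with a higher median depth of 1599 nuclear UMIs against 1211, had Ighm in 2 of 25 and Ighd in 0. Ighm, Ighd, Igkc, Iglc2, Cr2 and Fcer2a sit in the B cell list, so their split between groups was partly set by the naming. The kappa light chain was alone in 13 B cell-led barcodes, lambda chains were alone in 5, both kinds were in 12, and neither was in 22. UMIs of the class-switched heavy chains Ighg1, Ighg2b, Ighg2c, Ighg3 and Igha were 0 in all 52. Genes of B cell precursors (Rag1, Dntt, Vpreb3, Igll1 and Cd93) were also at 0 UMIs in them. Cr2, the complement receptor of mature B cells, had 28 UMIs in 14 B cell-led barcodes and none elsewhere among the members, Fcer2a (CD23) had 12 in 6, and the homing receptor gene Ccr7 had 7 in 5.

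Of the B cell receptor signalling genes, all 23 were detected, 20 passed the minimum of 10 UMIs in the members, and 18 of these were at least 4-fold above all other barcodes in both libraries. Of all genes, 33.3% met the same criterion (1215 of 3644), a contrast the rule itself used, so nothing is read from the count. The number met was 2040 in replicate 1 alone and 168 in replicate 2 alone. In the other direction, 46 genes were at least 4-fold lower in the members in both libraries (1.26%). The signalling genes' summed level was 11288 ± 1485 (SD, n = 2 libraries), against 584.3 ± 283.9 in the other barcodes under 50% haemoglobin. Blnk, the adaptor that links Syk to phospholipase, had all of its 86 UMIs in the members, 69 in B cell-led and 16 in dendritic cell-led barcodes. Syk had 138 of 182 UMIs in B cell-led barcodes and 26 in monocyte- or macrophage-led ones. Prkcb, the protein kinase C of B cell activation, had 211 and 33 of 278, and Lyn 138 and 89 of 286.

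Of 20 B cell transcription factors, 19 passed the minimum and 16 were at least 4-fold higher in the members in both libraries, beside 33.3% of all genes. Ikzf3 (Aiolos) had 170 of 186 UMIs in B cell-led barcodes, 16 in T cell-led ones and 0 in monocyte-, macrophage- or neutrophil-led ones. Aff3 had 312 of 355 in B cell-led barcodes, and Bach2, a repressor that holds back plasma cell fate, 393 of 438. Zeb2 ran the other way, with 160 of 262 UMIs in 22 of 25 monocyte- or macrophage-led barcodes and 72 in 16 of 52 B cell-led ones. Ikzf1 (Ikaros) and Runx1, shared by blood lineages, were in both kinds: Ikzf1 in 29 and 12 barcodes and Runx1 in 33 and 16.

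MHC class II presentation was led by Cd74, the invariant chain, with 126 UMIs in 46 members, of which 100 were in 34 B cell-led barcodes. At least 1 of H2-Aa, H2-Ab1, H2-Eb1 and Cd74 was found in 45 of the 52 B cell-led barcodes, and any gene of the 14-gene list in 47. Summed over the list, the level was 4043 in B cell-led, 1792 in monocyte- or macrophage-led and 144.0 in neutrophil-led barcodes. MHC class I genes were at 1220.4, 2015 and 1872.

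Leading genes were ranked by the ratio of members to all other barcodes among genes outside the rule. The first were Dock2, Ikzf3, Aff3, Arhgap15, Mir142hg (the host transcript of the blood microRNA miR-142), Pax5, Bcl11a, Btla, Ikzf1 and Ripor2. Bcl11a (114 UMIs), Btla (107), Blnk (86), Tnf (80) and Slc9a7 (70) had no UMI in any other barcode, so no ratio is given for them. Of the 25 leading genes, 24 were higher in the members in both libraries. The exception was Fgr, a Src-family kinase of myeloid cells, with 77 UMIs in replicate 1 and 0 in replicate 2. The 25 were long genes: 15 span over 100 kb, with a median of 136852 bp, against 26.4% and 52453 bp for all tested genes.

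**Figure D4:**
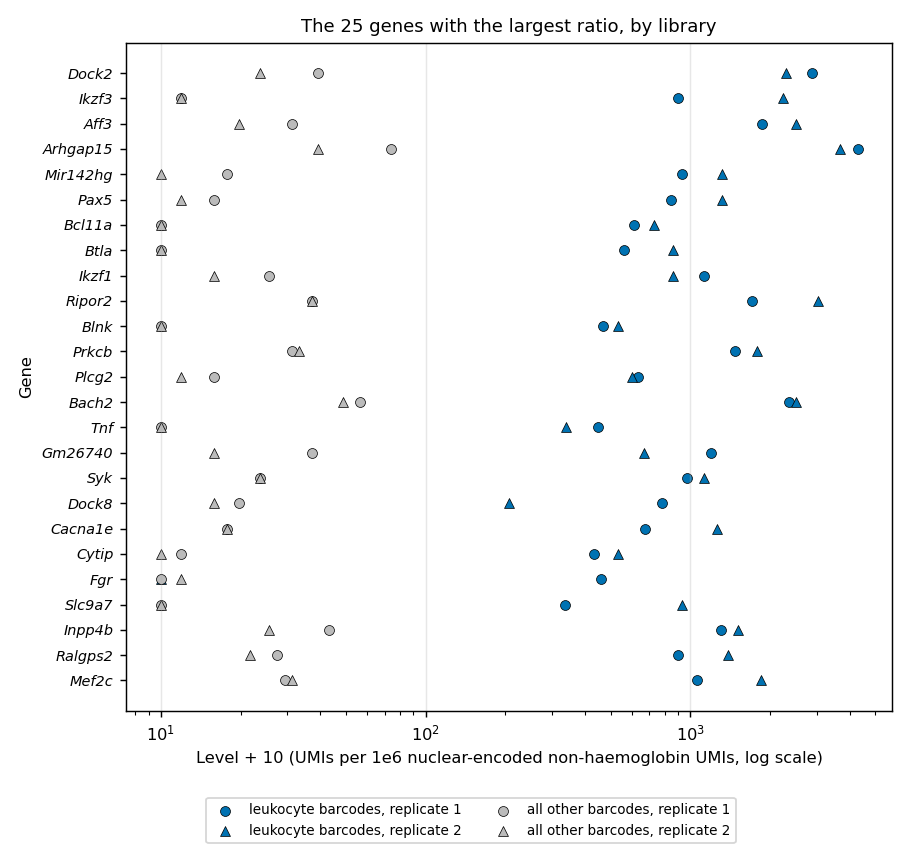
Levels plus 10 (UMIs per 1e6 nuclear-encoded non-haemoglobin UMIs, log scale) of the 25 leading genes, for leukocyte barcodes (blue) and all other barcodes (grey) of replicate 1 (circles) and replicate 2 (triangles). The genes were picked for this gap; Fgr, at 0 UMIs in the members of replicate 2, is the one gene whose triangle lies with the grey points.

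Genes that separated B cell-led from myeloid-led members (monocyte, macrophage or neutrophil) were ranked outside the rule and lineage lists. With libraries pooled, 340 of 3066 genes were at least 4-fold higher in B cell-led barcodes (11.1%) and 381 in myeloid-led ones (12.4%). In replicate 2 alone, with 4 myeloid-led barcodes, the first number was 147. The leading B cell genes were Ikzf3, Ets1, Btla, Tmem163, Sox5, Cacna1e, Blnk, Pgap1, Pecam1 and Kcnq5. All 10 had 0 UMIs in the myeloid-led barcodes, and their B cell-led counts ran from 52 UMIs for Kcnq5 to 170 for Ikzf3. Pecam1 (CD31), often used as an endothelial marker, had 59 UMIs in 28 of the 52 B cell-led barcodes, with 78 UMIs in all members. The other 11 endothelial genes gave 3 UMIs of Eng, 2 of Plvap and 1 each of Kdr, Flt1 and Vwf in the members, and 0 of Cdh5, Tek, Emcn, Egfl7, Ptprb and Cldn5.

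Sox5, a transcription factor of cartilage formation that is also known from subsets of B cells, had 81 UMIs in 17 members, all of them B cell-led, 16 in replicate 1 (79 UMIs) and 1 in replicate 2 (2 UMIs). The gene lies at chr6:143828425-144781977 (mm10, minus strand). The highest barcode had 19 Sox5 UMIs and the next 9, 8, 6 and 6. Outside the members Sox5 had 196 UMIs in barcodes under 50% haemoglobin, and its level in the members was 462.2 and 131.3 in the 2 libraries, against 188.7 and 206.4 in all other barcodes. The libraries thus lay on opposite sides of the other barcodes. T cell-, monocyte-, macrophage- and neutrophil-led members had 0 Sox5 UMIs.

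The leading myeloid genes were Wfdc17, Atf3, Plcb1, Prdx5, Fos, Lilr4b, Msrb1, Ifitm3, S100a11 and Fyb. Wfdc17, a small secreted protein of activated phagocytes, had 108 of 113 UMIs in neutrophil-led barcodes. Atf3, a stress-induced transcription factor, had 62 of 78 UMIs in 12 monocyte- or macrophage-led barcodes and 11 in 3 neutrophil-led ones, and Plcb1 had 72 of 83 in 16 monocyte- or macrophage-led ones. Fyb, an adaptor of T cells and myeloid cells, had 1 UMI in B cell-led barcodes and 65 in 24 myeloid-led ones. These were shorter genes, with a median span of 5936 bp, and UMIs of genes over 100 kb made up 38.8% of the total in B cell-led, 34.5% in monocyte- or macrophage-led and 15.2% in neutrophil-led barcodes.

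Neutrophil transcripts rested on a handful of barcodes of replicate 1. S100a8 (chr3:90668978-90670035) had 1951 UMIs and its neighbour S100a9 (chr3:90692632-90695721) 2398 in all members. 4 barcodes held 99.3% and 99.1% of these. Their S100a8 counts were 1302, 404, 117 and 115, and their S100a9 counts 1747, 353, 143 and 134. In these barcodes the pair made up 29.6%, 15.1%, 46.5% and 7.59% of all UMIs. The third had only 559 UMIs and 170 genes, whereas the first had 10304 UMIs, the most of any member, with 0.708% mitochondrial UMIs. In the other members with either gene, 13 in both libraries, the most was 3 UMIs of S100a8 and 4 of S100a9. S100a8 was at 11385 in replicate 1 and 328.1 in replicate 2, so its mean of 5857 ± 7818 (SD, n = 2) has an error above its size.

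Neutrophil-led barcodes also held Retnlg (400 UMIs in 5), the granulocyte receptor gene Csf3r (57 of 66 UMIs), Lcn2 (57 of 58) and Ly6g (20 UMIs in 2 members). All 38 Il1b UMIs, the interleukin-1 beta transcript, were in 5 of them. The C5a receptor gene C5ar1 had 30 of 32 UMIs there and Cxcr2 all 8. Retnlg, Csf3r, Lcn2, Ly6g and Cxcr2, like S100a8 and S100a9, sit in the neutrophil list, so their counts describe that group and do not test it. The group was otherwise uneven: 5 of the 11 were over 80% mitochondrial UMIs, and the 2 of replicate 2 had 51 and 76 nuclear UMIs.

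Monocyte- or macrophage-led barcodes showed blood monocyte genes at low counts and an inflammatory pattern in few barcodes. Lyz2 had 64 of 81 UMIs in 17 of the 25, Cybb, a core protein of the phagocyte oxidase, 49 of 80 in 17, Ccr2 19 of 21 in 13, and Csf1r 13 of 17 in 11. Ly6c2 had none of its 3 UMIs in them. These genes and Cx3cr1 sit in the list that named the group, so their counts describe it and do not test it. Cx3cr1 had 77 UMIs in the members, of which 69 were in 1 barcode of replicate 1 with 4659 UMIs. Tnf had 80 UMIs in 14 members and none in any other barcode. The barcode with most held 36, the next, which was the Cx3cr1 barcode, 16, and the third 9, all monocyte- or macrophage-led and of replicate 1. Without the highest barcode, 44 Tnf UMIs were left.

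Immediate early genes were found in both kinds of myeloid-led barcode. Junb had 43 of 96 UMIs in monocyte- or macrophage-led and 43 in neutrophil-led barcodes, and Jun 56 of 88 in monocyte- or macrophage-led ones. Nr4a1, an orphan receptor of patrolling monocytes and of recent activation, had 56 of 66 in the latter. It also sits in the monocyte or macrophage list, so its placement was partly set by the naming of the group. The summed level of the immediate early and stress genes was 1856 in B cell-led, 10322 in monocyte- or macrophage-led and 10368 in neutrophil-led barcodes. Nfkbia, the feedback inhibitor of NF-kappa-B, had 64 of 132 UMIs in 12 monocyte- or macrophage-led barcodes and 38 in 4 neutrophil-led ones. Every one of its UMIs in the members was in replicate 1.

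**Figure D5:**
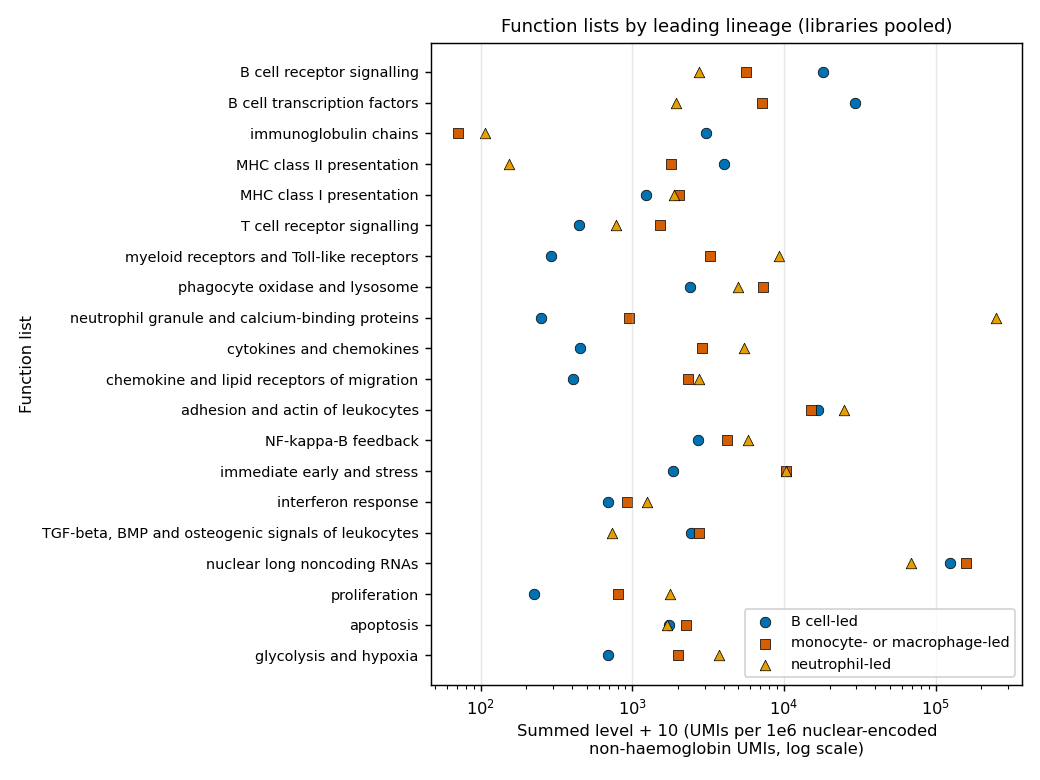
Each row is a function list, and points give its summed level plus 10 (log scale) in B cell-led (blue circles), monocyte- or macrophage-led (orange squares) and neutrophil-led (yellow triangles) leukocyte barcodes, libraries pooled. B cell lists and class II presentation are highest in B cell-led barcodes, and granule, cytokine, migration-receptor and immediate early lists in the myeloid-led ones.

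Some monocyte- or macrophage-led barcodes also carried genes of macrophages resident in tissues, from a list added after the data were seen. Fn1, which encodes fibronectin, had 70 of 77 UMIs in 11 of the 25, and F13a1, a coagulation factor of monocytes and macrophages, 27 of 36 in 9. Prg4 (lubricin) had 21 UMIs in 3 and Garnl3 11 in 2. The same 2 barcodes of replicate 1, with 3957 and 4233 UMIs, held 12 and 7 of the Prg4 UMIs and 6 and 5 of the Garnl3 UMIs, and the second of them also had 2 Gata6 UMIs. Another barcode, with 6184 UMIs, held 18 of the 19 Retnla UMIs and all 6 Mrc1 UMIs. These are single barcodes, so no level is compared between libraries.

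T cell-led barcodes were 6, all in replicate 1, and 2 of them held most of the T cell UMIs. Lef1, a transcription factor of naive T cells, had 40 and 25 of its 70 UMIs in these 2, and Skap1, an adaptor of T cell adhesion, 35 and 24 of 86. They were deep barcodes of 7933 and 8750 UMIs with 0.920% and 1.15% mitochondrial UMIs. Themis had 20 UMIs in 2 barcodes, Bcl11b 19 in 4, and the receptor genes Cd3e and Trbc2 3 each. Cd4 and Cd8a had 0 UMIs in the members. All of these genes sit in the T cell list that named the group, so their counts describe it and do not test it. The barcode of 8750 UMIs held all 14 Ifit3 UMIs of the members and 15 of the 21 Ifit1 UMIs, both interferon-induced, and the other deep barcode held the remaining 6 Ifit1 UMIs. Ighm was also present, with 10 UMIs in 3 T cell-led barcodes.

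A single barcode of replicate 1 held most UMIs of Siglech, a receptor of plasmacytoid dendritic cells. It had 7633 UMIs and 2302 genes, with 39 of the 42 Siglech UMIs of the members, 55 of the 118 UMIs of Tcf4, the factor that specifies this lineage, and 4 of the 5 of Ccr9. It had 11 of the 34 Irf8 UMIs, all 3 UMIs of Clec9a, a gene of conventional dendritic cells, and 0 of the 6 of Flt3. Bst2, also in the dendritic cell list, had 1 UMI in it. Siglech, Tcf4, Ccr9, Clec9a and Flt3 sit in that list too, so their counts describe the barcode and do not test its label. Of the B cell list, Ebf1 and Cd79a were at 0 in it, but Ighm had 6 UMIs and Mef2c 49 of 208. Runx2, the master factor of bone formation that is also active in these dendritic cells, had 55 UMIs in 9 members, of which this barcode held 36 and a second dendritic cell-led barcode 9. The Runx2 gene lies at chr17:44495987-44814797 (mm10, minus strand). Outside the members Runx2 had 4 UMIs, all in barcodes under 50% haemoglobin. No other member had more than 4.

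Of 25 TGF-beta, BMP and osteogenic signalling genes, 18 were detected, 11 passed the minimum and 3 were at least 4-fold higher in the members in both libraries, a share near the 33.3% of all genes. The summed level was 2394 ± 230.0 (SD, n = 2 libraries), against 1492 ± 470.3 in the other barcodes under 50% haemoglobin. Tgfb1, the ligand, had 36 UMIs in 20 members, 16 of them in monocyte- or macrophage-led barcodes, and the receptor gene Tgfbr2 43 UMIs in 29 members, 27 of them in B cell-led ones.

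In the adhesion and actin list, 22 of 24 genes passed the minimum and 13 were at least 4-fold higher in the members in both libraries, beside 33.3% of all genes. Of the 17 chemokine and lipid receptors of migration, 6 passed the minimum and 1 was called. The summed level of the adhesion and actin list was 16296 ± 2163.5 (SD, n = 2) against 5386 ± 1514 in the other barcodes under 50% haemoglobin. Elmo1, the partner of Dock2, was in 68 members, Dock10 in 71 and Itga4, an integrin subunit, in 53. Cytokine genes other than Tnf and Il1b were few: Ccl3 and Ccl4 had 20 UMIs each in 3 members, Cxcl2 23 in 4, and Ltb, the lymphotoxin of B cells, 17 of 22 UMIs in 11 B cell-led barcodes. Proliferation genes gave 102 UMIs over 18 genes, led by Hmgb2 (54 UMIs), with 3 UMIs of Mki67 and 10 of Top2a, 6 of these in 1 B cell-led barcode.

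For 3 lists of the 20 the members were not above the other barcodes under 50% haemoglobin. Nuclear long noncoding RNAs were at 121780 ± 11282 (SD, n = 2) against 330760 ± 67488. Most of this sum was Gm42418. It took 9.55% of the members' nuclear UMIs, 31.6% of those of the other barcodes under 50% haemoglobin and 46.4% of those with at least 50%. Malat1, which stays in the nucleus, ran the other way, at 3.11%, 2.41% and 0.0110%. The list sum therefore does not stand for every gene in it. It mostly follows the single gene Gm42418 and is not read as the amount of nuclear noncoding RNA in any kind of barcode. Phagocyte oxidase and lysosome genes were at 4275 ± 452.0 against 6559 ± 4156, and interferon response genes at 1337 ± 244.1 against 1811 ± 588.9, both within the spread of the other barcodes. Per 1e6 of all UMIs these last lists lay above the other barcodes instead, by 0.035 and 0.35 on the log2 scale. Over all genes tested, the median difference between members and all other barcodes was 2.15 on the log2 scale of levels. That median was not computed against the other barcodes under 50% haemoglobin alone.

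Markers of other cells were found at low counts. The 12 endothelial genes gave 86 UMIs in 39 members, 19 of them with at least 2, at a summed level of 401.0 ± 103.1 (SD, n = 2) against 371.5 ± 124.7 in the other barcodes under 50% haemoglobin. Most of these UMIs were of Pecam1 (78). The 12 erythroid genes gave 49 UMIs in 27 members, of which 1 had at least 5, with Slc4a1, Car2 and Hemgn among the genes at 0. The 14 platelet or megakaryocyte genes gave 39 UMIs in 15 members, 14 in replicate 1 and 25 in replicate 2 (levels of 81.9 and 1641), with Gp9, Gp5 and Tubb1 among the 7 genes at 0. Mesenchymal genes gave 19 UMIs in 11 members, 5 of Dcn and 4 of Col3a1 among them, with Pdgfra, Pdgfrb and Prrx1 among the 12 genes at 0. Mesothelial or epithelial genes gave 9 UMIs in 8 members and skeletal muscle genes 4 in 4. Summed mesenchymal levels were 145.2 ± 73.0 (SD, n = 2) in leukocyte barcodes and 2918.5 ± 156.8 in the other barcodes under 50% haemoglobin.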

How the data were processed

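The 2 libraries were deposited as gene-by-barcode matrices of raw UMI counts, which the authors had not normalized. Per the file headers and the submitters' processing notes, Cell Ranger 7.1.0 was used, and the notes name Seurat 5 and the mm10 build. The sources used here do not state how barcodes were called, whether introns were counted or how doublets were treated before deposit. Replicate 1 held 3967318 UMIs in 1008 barcodes and replicate 2 held 3329292 in 849.

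Members were found by the stated rule in Python 3.11.15 (numpy 2.4.6, pandas 2.3.3, scipy 1.17.1), with no mitochondrial limit, clustering or doublet caller. The members and gene lists were chosen with earlier results of these data known, and 6 short lists were added after seeing the data. A level is UMIs per 1e6 UMIs after removal of 4 haemoglobin and 13 mitochondrially encoded genes, summed over barcodes, as mean ± SD of 2 libraries. A gene with at least 10 UMIs in the members was counted as higher where its ratio, with a pseudocount of 10, was at least 4 in both libraries. Lineage was the list, of 9, with most UMIs (at least 2, no tie). Thinning used the exact expectation at 100 nuclear UMIs. Shares have exact 95% Clopper-Pearson intervals, and a floor is 3 counts of the total. There was no test: cells are not replicates, and the labels give 1 group.

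Genes named are the rule markers, up to 6 per function list by UMIs in the members, the 25 with the largest ratio found in at least 10% of members, the 10 leading B cell-led and 10 leading myeloid-led genes found in at least 20% of their group, and other cells' markers with at least 5 UMIs. Genes at 0, and those named in single barcodes or from added lists, were chosen after their values were seen. Of 32285 gene IDs, 32158 matched GENCODE M21 (mm10), which gave coordinates and gene spans. Aldoa, Clec7a and Ddit3 had no unique symbol in the files. Alternatives were other haemoglobin, marker, mitochondrial, gene-number and UMI limits, scaling, weighting, pseudocount, reference barcodes and leaving out each library.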

Additional observations from a re-analysis of the deposited data

How the results depend on the processing

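The mean leukocyte share (6.08%) ran from 4.74% to 9.54% under 7 alternatives with both libraries, the highest with at least 100 genes, and was 2.24% and 9.92% in the single libraries. The mean share over 20% mitochondrial UMIs (56.8%) ran from 45.5% to 56.8% under 5 such alternatives, was 71.5% and 36.9% with the limit at 10% and 50%, and was 40% and 73.7% in the single libraries. The B cell-led share (mean 40.9%) was 52.2% with at least 2 of 14 markers required, 74.2% at or under 20% mitochondrial UMIs, 53.3% with at least 100 genes, 34.7% with at least 5 UMIs of the leading list and 68.2% for members at or under 80% mitochondrial UMIs, an alternative added after seeing the data. It was 36.8% to 45% with a library left out. The 1215 genes at least 4-fold higher in leukocyte barcodes became 351 with a pseudocount of 50 and 451 against other barcodes under 50% haemoglobin. They were 868 with each barcode weighted equally and 1650 per 1e6 of all UMIs. With Gm42418 left out of the total, an alternative that was not planned, they were 836. With a library left out they were 168 to 2040, the 168 being replicate 2 alone, where members held 15237 nuclear UMIs. The 340 genes higher in B cell-led than in myeloid-led barcodes became 923 with no UMI minimum and 147 to 298 with a library left out. Of 20 function lists, 17 were above the other barcodes under 50% haemoglobin, and 14 to 19 under the alternatives. No share over all genes was computed for this comparison. Gm42418 alone took 9.55% of the members' nuclear UMIs and 31.6% of those of the other barcodes under 50% haemoglobin. The count is therefore not read as a trait of the lists, and the log2 ratios below are also to those other barcodes.

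As log2 ratios to those barcodes, phagocyte oxidase and lysosome changed sign to 0.035 per 1e6 of all UMIs and ran from -1.05 to 0.13 with a library left out, and interferon response changed to 0.35 and ran from -0.93 to 0.11. With each barcode weighted equally, MHC class I presentation was at -0.033, proliferation at -0.12 and glycolysis and hypoxia at -0.19. With a library left out, and lowest without replicate 1, neutrophil granule genes ran from -0.16 to 4.93, immediate early and stress genes from -0.87 to 0.81, glycolysis and hypoxia from -0.072 to 0.52 and the gene Fgr, against all other barcodes, from -0.26 to 5.53. Replicate 2 had 19 members, of which 11 were over 80% mitochondrial UMIs. The cause of these changes was not tested. No paired analysis was possible because both libraries belong to 1 group.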

Other observations

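Transcripts of the Y chromosome were present in the leukocyte barcodes of both libraries and Xist was absent. Ddx3y had 21 UMIs in replicate 1 and 6 in replicate 2, Uty 25 and 6, Eif2s3y 14 and 2, and Kdm5d 9 and 1. Xist had 0 UMIs in all 1857 barcodes. The labels used here do not state the sex of the mice.

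Sox5 and Runx2, regulators of cartilage and bone, were unevenly placed in the members: the former was seen in B cell-led barcodes alone (81 UMIs in 17 of 52) and the latter was held mostly by 2 dendritic cell-led barcodes (36 and 9 of 55 UMIs). Il5ra, placed on the eosinophil list, had all of its 16 UMIs in 11 B cell-led barcodes. Irf4, placed on the plasma cell list, had 11 of 15 UMIs in 8 B cell-led barcodes. Bcl2, the survival factor, had 70 of 91 UMIs in 24 B cell-led barcodes, while Mcl1 had 20 of 64 in 4 neutrophil-led ones.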
